A study of Trametes pubescens and Hermanssonia centrifuga with 16 samples.

Results

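Phlebia centrifuga, which GEO lists under Hermanssonia centrifuga and which was used here as strain FBCC195, is a white-rot fungus of fallen spruce in boreal forests. The gene models described here are the 122 of its 13785 that were higher on wheat straw than on spruce in every library at both temperatures. A gene model is a predicted gene. CPM is a count scaled to its library's depth, here with TMM factors (a trimmed mean of the log ratios between libraries). The members were chosen by their measured CPM: membership required the lowest CPM of the 4 straw libraries to be at least 10 and at least 1.5 times the highest CPM of the 4 spruce libraries. This held for 0.885% of all gene models of the fungus. The series holds 28236 gene models of 2 species. Straw against spruce chose the members, so that contrast is described below without a test. The effects of temperature were not used in the choice and were tested.

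Messenger RNA was sequenced from mycelium after 21 days at 15 or 25 °C on solid cultures of wheat straw or Norway spruce wood, each with 2 g of dry material and 60% moisture. The 4 groups were straw at 15 °C, straw at 25 °C, spruce at 15 °C and spruce at 25 °C, all of the one strain with no further agent named, each with 2 libraries. The temperatures come from the sample titles and treatment labels; the protocol text gives 25 °C alone for the solid cultures, and 15 °C for the liquid preculture of this species. Nothing in the labels tells whether a group's 2 libraries are separate cultures. The p-values then reflect the spread between these samples alone, and that spread may be technical.

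White-rot fungi secrete enzymes that break down lignin together with cellulose and hemicelluloses, and they adjust this secreted set to the plant material. Wheat straw is a grass, rich in arabinoxylan and in ferulic and coumaric acid esters, whereas spruce is a softwood rich in galactoglucomannan, with a lignin built mainly of guaiacyl units and with resin compounds. The files pair the identifiers with no gene names, and no annotation or sequence was used here, so no function is given to any member. Which members encode secreted enzymes, transporters or regulators was therefore not analysed here.

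The 8 libraries held 9691925 to 12420388 raw counts, and 11944 to 12016 gene models had at least 1 count. All 122 members passed the filter on low counts, together with 11536 other models. The libraries of spruce at 15 °C stood apart from each other more than those of any other group. Over all tested models the median absolute log2 ratio between the libraries of a group was 0.26 there, against 0.14 to 0.16 in the other 3 groups. For the members it was 0.34 in spruce at 15 °C, 0.20 in straw at 15 °C, 0.18 in straw at 25 °C and 0.19 in spruce at 25 °C. In spruce at 15 °C, 13 members (10.7%) differed by at least 2-fold between the libraries, against 4.86% of all tested models. Without the second library of that group the rule would have chosen 199 gene models, and without the first 175. Any other library left out gave 128 to 154. Leaving out a library removes a condition of the rule, so the count tends to rise whichever is dropped.

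The members spanned a wide range of levels. Their mean over the straw libraries ran from 14.6 to 4940 CPM, with a median of 137 CPM. Over the spruce libraries the mean ran from 0.44 to 2069 CPM, with a median of 28.5 CPM. On straw 67 members averaged at least 100 CPM. Most members were therefore still expressed on spruce at a lower level, since 20 stayed under 10 CPM in every spruce library and 6 under 5 CPM. Together the members took 4.33% and 4.13% of the counts in the straw libraries at 15 °C and 4.05% and 3.79% at 25 °C. In the spruce libraries they took 1.21% and 1.21% at 15 °C and 1.21% and 1.13% at 25 °C. The 10 most abundant members held 37.8% to 43.8% of these counts on straw and 47.8% to 53.7% on spruce.

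**Figure D1:**
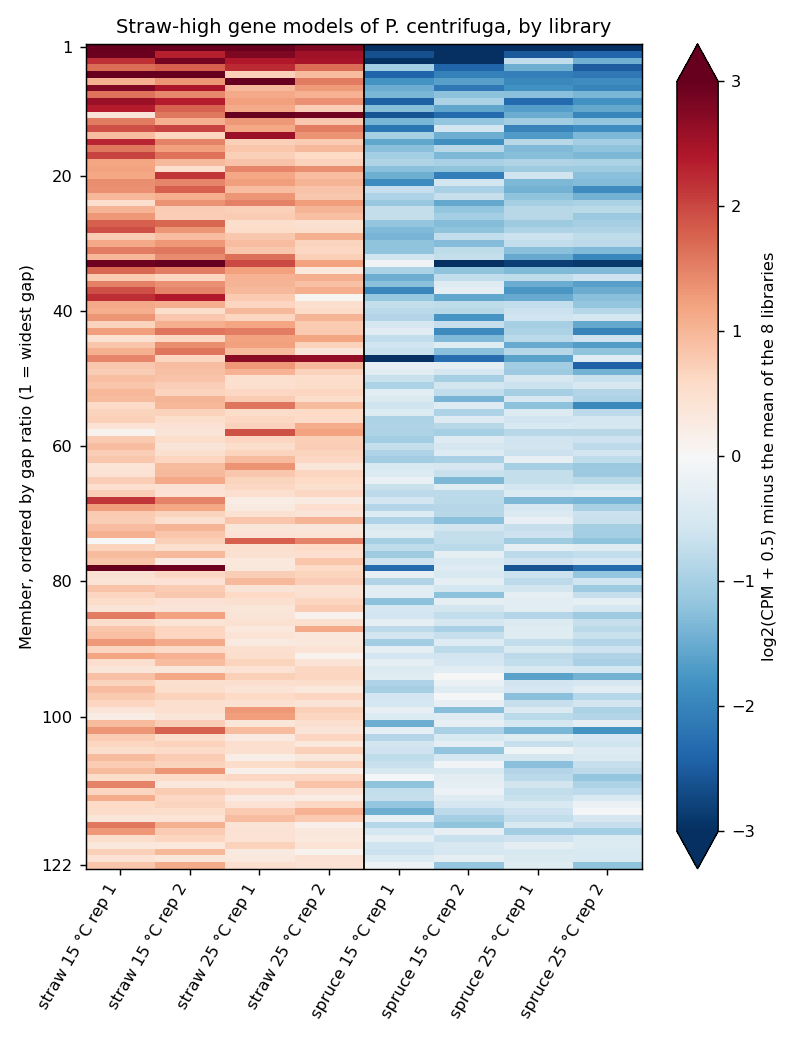
Level of each of the 122 members (rows, ordered by gap ratio) in the 8 libraries (columns), as log2(CPM + 0.5) minus the mean of the 8 libraries. The 4 straw libraries left of the line are higher in every row by the rule. The order follows the gap ratio, not the ratio of means, so rows with a strong contrast also stand further down, such as gene model 3083 with a gap ratio of 1.64 and ratios of means of 22.3 and 7.77.

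The gap ratio, the lowest straw CPM divided by the highest spruce CPM, was small for most members. Its median was 1.82; 49 members reached 2, 21 reached 3, 7 reached 5 and 2 reached 10. The ratio of group means cannot be smaller than the gap ratio, which takes the lowest straw and the highest spruce value. At 15 °C it had a median of 3.13 and at 25 °C a median of 2.92, and 93 members were at least 2-fold higher on straw at both temperatures by their means. A difference of at least 8-fold at both temperatures was found in 11 members.

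Gene model 1822 (jgi|Phlcen1|1822|scaffold_1388.1, model 1 of scaffold 1388) had the widest gap. It stood at 209 and 222 CPM on straw at 15 °C and at 105 and 78.2 CPM on straw at 25 °C. On spruce it held 3 and 1 counts in the libraries at 15 °C and 7 and 10 counts at 25 °C, which is 0.11 to 0.76 CPM. It was the only member under 1 CPM in every spruce library. The ratio of mean CPM on straw to spruce was 1060 at 15 °C and 136 at 25 °C. From the summed counts of each group, scaled for depth, the ratio was 1024 at 15 °C (4632 against 4 counts). Its 95% exact interval for counting error was 399.8 to 3761. At 25 °C that ratio was 134, with an interval of 83.3 to 230.1. The intervals cover counting error alone and are no test of straw against spruce, since this member was picked for its wide gap.

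Gene model 6985 (jgi|Phlcen1|6985|scaffold_2484.35, model 35 of scaffold 2484) had the next widest gap and a higher level. Its straw libraries held 583 and 380.0 CPM at 15 °C and 525 and 434 CPM at 25 °C. Its spruce libraries held 11.6 and 8.86 CPM at 15 °C and 12.7 and 14.003 CPM at 25 °C. The straw values of both temperatures overlapped, and the lowest of them was 27.1 times the highest spruce value.

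The most abundant member on either substrate was gene model 245 (jgi|Phlcen1|245|scaffold_1034.10). It held 5282 and 4422 CPM on straw at 15 °C, 5017 and 5039 CPM on straw at 25 °C, 1671 and 2421 CPM on spruce at 15 °C, and 2034 and 2149 CPM on spruce at 25 °C. It ranked between 3 and 7 among all gene models in the straw libraries and between 24 and 45 in the spruce libraries. A steady difference of 2.37-fold at 15 °C and 2.40-fold at 25 °C thus came on top of a level that stayed high on spruce. Gene model 5344 (jgi|Phlcen1|5344|scaffold_2156.29) followed. It held 1683 and 1712 CPM on straw at 15 °C, 1776 and 1752 CPM on straw at 25 °C, 1096 and 915 CPM on spruce at 15 °C, and 652 and 514 CPM on spruce at 25 °C. Its straw libraries lay close together at both temperatures, while its spruce libraries were lower at 25 °C than at 15 °C without overlap. This fall had a log2 fold change of -0.79 ± 0.17 (SE, edgeR's quasi-likelihood test, adjusted p = 0.0303). The call was kept in 6 of 14 alternative fits. It was lost when the 4 spruce libraries were fitted by themselves, and without any single straw library. Leaving out the first spruce library at 15 °C, or either at 25 °C, also ended it.

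The members nearest to the threshold show how little separated them from the models left out. Gene model 330 (jgi|Phlcen1|330|scaffold_1053.36) had a gap ratio of 1.5021 and gene model 2253 (jgi|Phlcen1|2253|scaffold_1468.4) of 1.505. Just outside lay gene model 5436 with a ratio of 1.4994 and gene model 18 with 1.4984. For the level, the lowest straw value inside was 10.1 CPM, in gene model 866, and the nearest values outside were 9.96 and 9.76 CPM, in gene models 11957 and 8007.

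**Figure D2:**
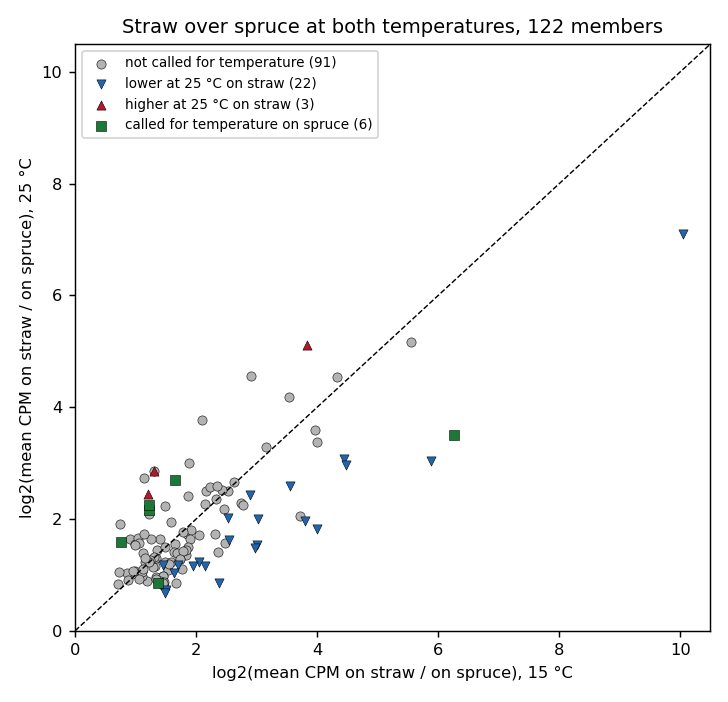
Ratio of mean CPM on straw to mean CPM on spruce (log2) for the 122 members, at 15 °C (x axis) and at 25 °C (y axis), 1 point per member, marked by its call for temperature. The 22 members that fell on straw at 25 °C lie below the dashed line of equal ratios, and gene model 1822 lies far out on both axes.

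Temperature moved some of the members on straw, and mainly downward. At 25 °C relative to 15 °C, 22 of the 122 members fell on straw (18.0%), against 5.21% of all tested models, and 3 rose (2.46%), against 6.48% (edgeR's quasi-likelihood test, adjusted p under 0.05 over 11658 models). Among the 8112 tested models with at least 10 CPM in every straw library, the shares were 6.18% lower and 5.25% higher. The median log2 fold change of the members was -0.19, against -0.01 over all tested models, and 80 of the 122 (65.6%) had a value below 0, against 50.8%. The rule asked only that every straw library exceed every spruce library by 1.5 times, so it limited how far a member could fall but did not fix the direction.

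The 22 members that fell had log2 fold changes between -2.94 and -0.46, with a median of -1.12, and 13 fell by at least 2-fold. In all 22, and in all 3 that rose, the straw libraries at 15 and 25 °C did not overlap. The calls were made on these same libraries, so this is no separate evidence for the falls. The count depended on the straw libraries. Leaving out 1 straw library grown at 15 °C gave 7 (the first) or 14 (the second), with 0.776% and 1.60% of all tested models called lower. Leaving out 1 grown at 25 °C gave 11 or 7, with 1.07% and 1.22%. Without either spruce library at 15 °C it was 29, with 9.39% of all tested models called lower. With scaling by library totals alone, which moved the median of all tested models to 0.11, 19 members fell and 7 rose. Of all tested models 3.10% then fell and 9.04% rose.

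Gene model 3083 (jgi|Phlcen1|3083|scaffold_1592.6) had the largest fall. It held 799 and 446 CPM on straw at 15 °C and 73.0 and 88.6 CPM at 25 °C. The log2 fold change was -2.94 ± 0.57 (SE, n = 2 per group; edgeR adjusted p = 0.0186). Its spruce libraries held 11.3 and 44.4 CPM at 15 °C and 9.29 and 11.5 CPM at 25 °C. The second spruce library at 15 °C stood above the other spruce libraries. The call was lost without the first straw library at 15 °C and without either at 25 °C (adjusted p up to 0.119).

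Gene model 13034 (jgi|Phlcen1|13034|scaffold_865.1) also fell on straw, with a call that held with each library left out. It held 220 and 373 CPM on straw at 15 °C and 41.2 and 48.9 CPM at 25 °C. The log2 fold change was -2.72 ± 0.26 (SE, n = 2 per group; edgeR adjusted p = 0.00142). On spruce it stayed between 4.30 and 5.79 CPM in all 4 libraries. Its straw to spruce ratio was 58.8 at 15 °C and 8.21 at 25 °C. The widest-gap member, 1822, was among the 22 as well, with a log2 fold change of -1.23 ± 0.17 (edgeR adjusted p = 0.00505). With these 2, calls of 6 of the 22 members held with each of the 8 libraries left out in turn.

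On spruce the values of these 22 members lay on both sides of 0. None of them was called between temperatures there by edgeR, 4 were lower at an unadjusted p under 0.05 (13.7% of all tested models were) and gene model 1822 was higher (log2 fold change 1.63 ± 0.55, edgeR adjusted p = 0.102). Their log2 fold changes on spruce ran from -1.42 to 1.63 with a median of -0.09. Their median ratio of straw to spruce means was 6.62 at 15 °C and 3.00 at 25 °C. These ratios come from the same libraries as the calls on straw.

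The 3 members that rose on straw were gene models 6685, 3430 and 2833. Gene model 6685 (jgi|Phlcen1|6685|scaffold_2448.2) held 18.2 and 42.0 CPM on straw at 15 °C and 162 and 107 CPM at 25 °C. The log2 fold change was 2.16 ± 0.38 (SE, n = 2 per group; edgeR adjusted p = 0.0132). On spruce it held 1.86 and 2.38 CPM at 15 °C and 4.56 and 3.20 CPM at 25 °C. These low values were also higher at 25 °C without overlap, but not called (log2 fold change 0.87 ± 0.57, edgeR adjusted p = 0.351). The difference between the effects on the 2 substrates was not called either (-1.29 ± 0.70, edgeR adjusted p = 0.375). Its ratio of straw to spruce means was 14.2 at 15 °C and 34.6 at 25 °C.

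Gene model 3430 (jgi|Phlcen1|3430|scaffold_1670.18) was abundant on both substrates. It held 369 and 450.05 CPM on straw at 15 °C and 1303 and 800.4 CPM at 25 °C. The log2 fold change was 1.36 ± 0.23 (SE, n = 2 per group; edgeR adjusted p = 0.0111). Its 4 spruce libraries lay between 172 and 194 CPM. The libraries at 25 °C were higher than those at 15 °C on straw without overlap, while the spruce libraries lay close together. The call of 6685 was lost without the first straw library at 15 or 25 °C and that of 3430 without either straw library at 15 °C. Gene model 2833 lost its call without the first straw library at 15 °C and without either at 25 °C. The count of 3 became 1 without the first straw library at 15 °C, where that member was none of the 3 (1.39% of all tested models were then called higher). It became 1 without the first at 25 °C, where that member was 3430 (2.88%). The count also moved without the second straw library grown at 25 °C and without either spruce library grown at 15 °C. Without the second straw library grown at 25 °C, the share among members was no longer below that of all tested models. When the 4 straw libraries were fitted by themselves, 5 members rose, beside 7.78% of all tested models.

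**Figure D3:**
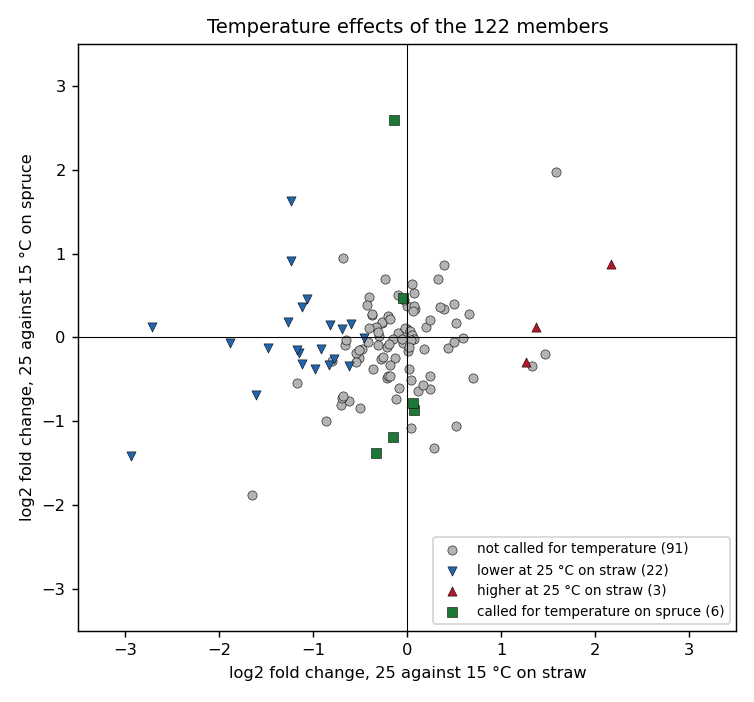
Log2 fold change of 25 against 15 °C on straw (x axis) and on spruce (y axis) for the 122 members, 1 point per member, marked by its edgeR call. The 22 members that fell on straw spread around 0 on the spruce axis, and the 6 called on spruce lie between -0.33 and 0.07 on the straw axis.

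On spruce, fewer members were called for temperature than on straw. At 25 °C relative to 15 °C, 4 of the 122 members fell (3.28%), against 3.87% of all tested models, and 2 rose (1.64%), against 5.77% (edgeR adjusted p under 0.05; 9.64% in either direction). Among tested models with at least 10 CPM in every straw library the shares were 4.96% lower and 5.39% higher. With DESeq2 13 members fell and 2 rose, beside 6.54% and 5.44% of all tested models. The rule makes members lower on spruce than on straw. Whether that reduced the number of calls was not tested. The median log2 fold change of the members was -0.06, against 0.00 over all tested models. In all, 91 members were called for temperature on neither substrate and 31 (25.4%) on 1 of them, against 17.4% of all tested models called on either. In 64 members (52.5%) temperature changed the level by less than 1.5-fold on both substrates, against 68.4% of all tested models.

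Gene model 2151 (jgi|Phlcen1|2151|scaffold_1449.21) had the largest called fall on spruce. It held 20.6 and 26.7 CPM on spruce at 15 °C and 8.46 and 9.74 CPM at 25 °C. The log2 fold change was -1.37 ± 0.18 (SE, n = 2 per group; edgeR adjusted p = 0.00754). On straw it held 49.5 and 60.4 CPM at 15 °C and 44.4 and 42.5 CPM at 25 °C, a difference that was not called (log2 fold change -0.33 ± 0.16, edgeR adjusted p = 0.218). Gene model 10817 (jgi|Phlcen1|10817|scaffold_389.11) fell from 9.29 and 11.1 CPM on spruce at 15 °C to 4.73 and 4.19 CPM at 25 °C, with a log2 fold change of -1.19 ± 0.29 (edgeR adjusted p = 0.0443). Its straw libraries overlapped between temperatures, at 25.8 and 38.5 CPM at 15 °C and 34.3 and 23.5 CPM at 25 °C.

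Of the 2 that rose, gene model 7673 (jgi|Phlcen1|7673|scaffold_2626.21) changed most. It held 17.0 and 4.54 CPM on spruce at 15 °C and 81.8 and 49.9 CPM at 25 °C. The log2 fold change was 2.60 ± 0.55 (SE, n = 2 per group; edgeR adjusted p = 0.0307). On straw it held 634 and 1016 CPM at 15 °C and 726 and 761 CPM at 25 °C, which overlapped. Gene model 4982 (jgi|Phlcen1|4982|scaffold_2088.10) rose from 28.9 and 28.3 CPM on spruce at 15 °C to 40.8 and 38.7 CPM at 25 °C, with a log2 fold change of 0.47 ± 0.11 (edgeR adjusted p = 0.0434). Its straw libraries held 69.4 to 78.9 CPM at 15 °C and 68.9 to 74.9 CPM at 25 °C.

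None of these 6 calls held when the 4 spruce libraries were fitted by themselves. By edgeR 0 of the 121 members tested were then called, with 10 higher and 19 lower at an unadjusted p under 0.05. That fit called only 0.693% of all tested models higher and 0.303% lower, against 5.77% and 3.87% in the main fit. Fits without 1 spruce library grown at 25 °C, or without 1 straw library, also called fewer of all tested models than the main fit. In these fits neither of the 2 members that rose kept its call. With 1 spruce library grown at 25 °C left out, none of the 4 that fell kept the call. With 1 straw library left out, some of the 4 did. Whether the members differed from all tested models in these fits was not tested. Leaving out the first spruce library grown at 15 °C gave 3 members higher, 1 of them among the 2, and 11 lower, 1 of them among the 4, with 5.24% and 6.67% of all tested models. Leaving out the second gave 6 higher, 1 of them among the 2, and 6 lower, 3 of them among the 4, with 6.75% and 6.44%. With scaling by library totals alone, which moved the median of all tested models on spruce to 0.16, 5 members rose and 4 fell. Of all tested models 10.3% then rose and 2.13% fell. With RLE scaling 1 member rose and 5 fell, beside 5.34% and 4.97% of all tested models.

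No member was called in the same direction on both substrates by edgeR. Of the 11658 tested models, 334 rose on both and 115 fell on both, which are small shares. At an unadjusted p under 0.05, 1 member was higher and 7 were lower on both, beside 796 and 492 of all tested models. With DESeq2 at an adjusted p under 0.05, 1 member rose and 3 fell on both, beside 314 and 172 of all tested models. By the unadjusted and the DESeq2 counts, the share among members was smaller than among all tested models for rises and larger for falls. Whether members differed from all tested models in these shares was not tested. The mirrored rule, spruce over straw by the same thresholds, chose 148 gene models. Of these, 2 fell (1.35%) and 1 rose (0.68%) at 25 °C on spruce, the substrate where they were high, and 10 fell (6.76%) and 11 rose (7.43%) on straw. The difference between the lists was not tested.

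**Figure D4:**
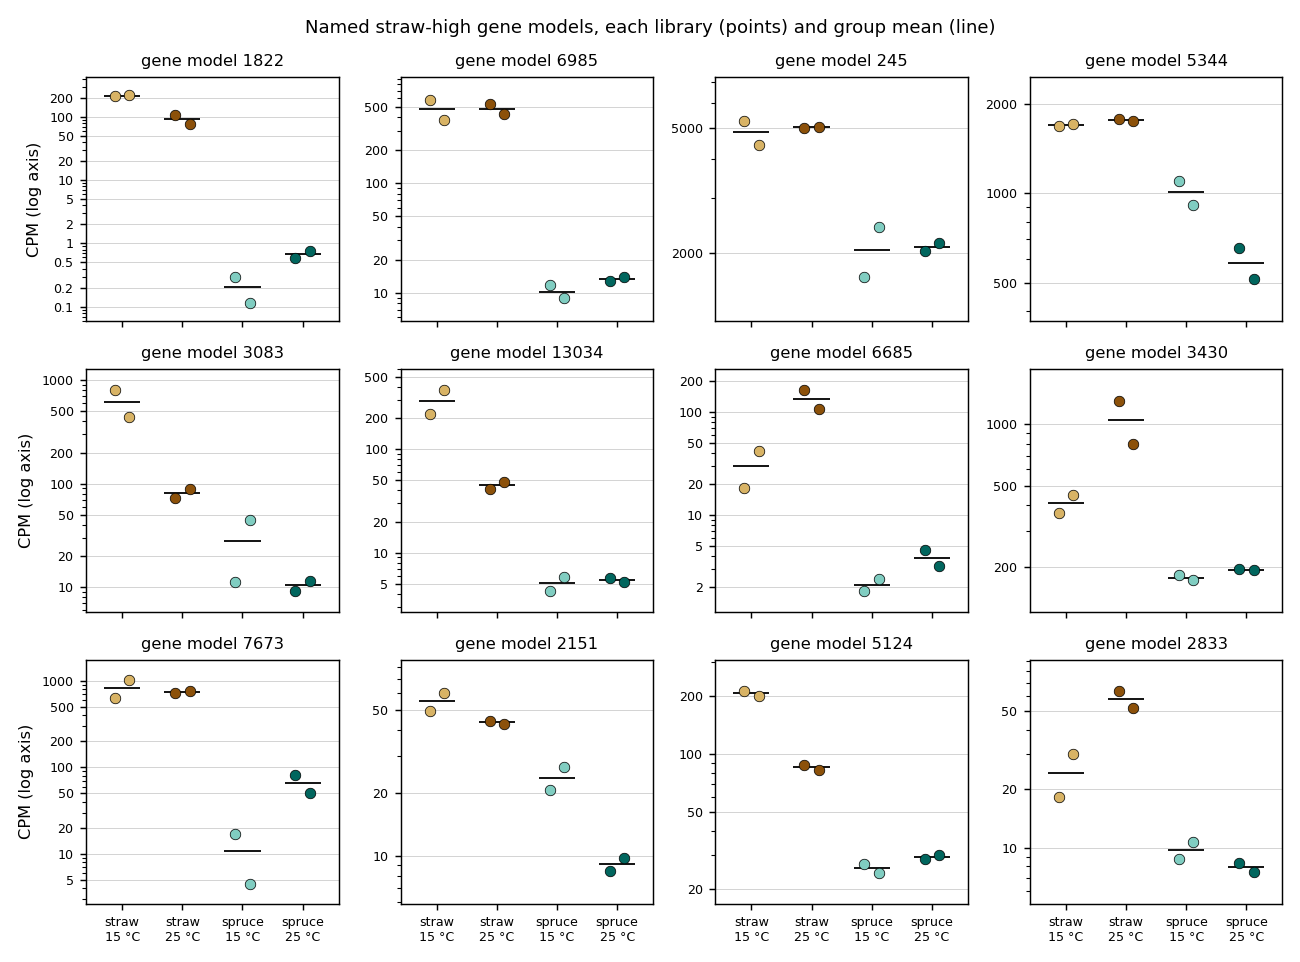
CPM on a log axis for 12 named members, each library as a point and the mean of each group of 2 as a line. Gene models 3083, 13034, 1822 and 5124 are lower on straw at 25 °C than at 15 °C, and 6685, 3430 and 2833 are higher. Gene models 7673, 2151 and 5344 differ between temperatures on spruce.

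The interaction asks whether temperature acted differently on the 2 substrates, which is also whether the ratio of straw to spruce differed between temperatures. The rule bounded this ratio at both temperatures but did not fix its change. The ratio of means was larger at 15 °C in 72 members and larger at 25 °C in the other members. It stayed within 1.5 times between temperatures in 74 members and differed by at least 2 times in 23, of which 12 had the larger ratio at 15 °C. By the fitted interaction, 60.7% of the members changed this ratio by less than 1.5-fold, against 77.5% of all tested models. By edgeR, 1 member had a positive interaction, a ratio smaller at 25 °C, against 0.0515% of all tested models, and 0 had a negative one, against 0.0343% (0.0858% in either direction). Among models with at least 10 CPM in every straw library these shares were 0.0616% and 0.037%. At an unadjusted p under 0.05, 24 members were positive and 13 negative, against 9.18% and 8.96% of all tested models.

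The member called was gene model 5124 (jgi|Phlcen1|5124|scaffold_2116.14). It held 212 and 200.1 CPM on straw at 15 °C and 88.1 and 82.8 CPM on straw at 25 °C. Its spruce libraries held 27.0 and 24.4 CPM at 15 °C and 28.6 and 30.1 CPM at 25 °C. It fell on straw (log2 fold change -1.27 ± 0.11, edgeR adjusted p = 0.00115), while on spruce its change of 0.19 ± 0.11 was not called (edgeR adjusted p = 0.297). The difference between these effects was 1.46 ± 0.15 on the log2 scale (SE, n = 2 per group; edgeR adjusted p = 0.0475). The call was lost in 8 of 13 alternatives, among them RLE scaling (edgeR adjusted p = 0.0554) and the replicate block (edgeR adjusted p = 0.0710), and the adjusted p ranged from 1.12e-06 to 0.274. Leaving out any single straw library, or either spruce one grown at 25 °C, also ended it.

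The positive interaction with the next lowest p was that of gene model 13034, at 2.84 ± 0.40 (edgeR adjusted p = 0.0744). On the negative side gene model 2151 reached -1.04 ± 0.24 (edgeR adjusted p = 0.111) and gene model 2833 (jgi|Phlcen1|2833|scaffold_1552.9) -1.55 ± 0.36 (edgeR adjusted p = 0.115). Gene model 2833 held 18.1 and 30.0 CPM on straw at 15 °C, 63.2 and 51.7 CPM on straw at 25 °C, and 7.46 to 10.7 CPM on spruce. None of these 3 differences was called.

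The position of a gene model was not used by the rule. It was read from the identifier, which gives a scaffold and a running number on that scaffold; the genome build is not given in the sources used here and no coordinates were used. The 122 members lay on 100 scaffolds, with 2 members on 20 of them and 3 on scaffold 1603 (models 16, 19 and 31). Of the members, 18 (14.8%) had a consecutive number with another member, forming 9 pairs and no longer run. Among the other 11536 tested models 196 (1.70%) were next to a member. Of these 196, 44 (22.4%) had every straw library above every spruce library without being members, against 7.20% of the 11340 models that were neither members nor next to one, and 8.42% of all tested models. The median log2 ratio of straw to spruce was 0.20 in the 196 and -0.01 in the 11340. No source used here states whether counting used strand, so overlapping neighbours could not be told apart.

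The pairs fell into some whose members kept a fixed ratio and some whose members did not. Gene models 244 and 245 (models 9 and 10 of scaffold 1034) were the most abundant pair. Gene model 244 held 1047 and 874 CPM on straw at 15 °C, 956 and 993 CPM on straw at 25 °C, 294 and 462 CPM on spruce at 15 °C, and 399 and 396 CPM on spruce at 25 °C. In every library 245 was 5.05 to 5.69 times as high as 244, so that the values of both moved together also between libraries of a group.

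Gene models 7563 and 7564 (models 42 and 43 of scaffold 2600) likewise kept a ratio of 1.13 to 1.34. Gene model 7563 held 426 and 403 CPM on straw at 15 °C, 373 and 388 CPM on straw at 25 °C, 167 and 237 CPM on spruce at 15 °C, and 104 and 138 CPM on spruce at 25 °C. Gene model 7564 held 510 and 474 CPM on straw at 15 °C, 435 and 486 CPM on straw at 25 °C, 189 and 283 CPM on spruce at 15 °C, and 125 and 185 CPM on spruce at 25 °C. In both, the second library of each spruce group was the higher one.

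Gene models 7673 and 7674 (models 21 and 22 of scaffold 2626) differed by contrast in level and in ratio. Gene model 7674 held 21.1 and 42.4 CPM on straw at 15 °C, 21.4 and 18.0 CPM on straw at 25 °C, 3.03 and 1.82 CPM on spruce at 15 °C, and 5.97 and 3.58 CPM on spruce at 25 °C. Its ratio to 7673 ran from 0.024 to 0.40, higher in each spruce library than in any straw library. Both members of the pair 9790 and 9791 (models 10 and 11 of scaffold 2880) were among the 22 that fell on straw at 25 °C. Their ratio ran from 0.60 to 1.23. In the remaining 5 pairs the highest ratio was 1.35 to 3.52 times the lowest.

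**Figure D5:**
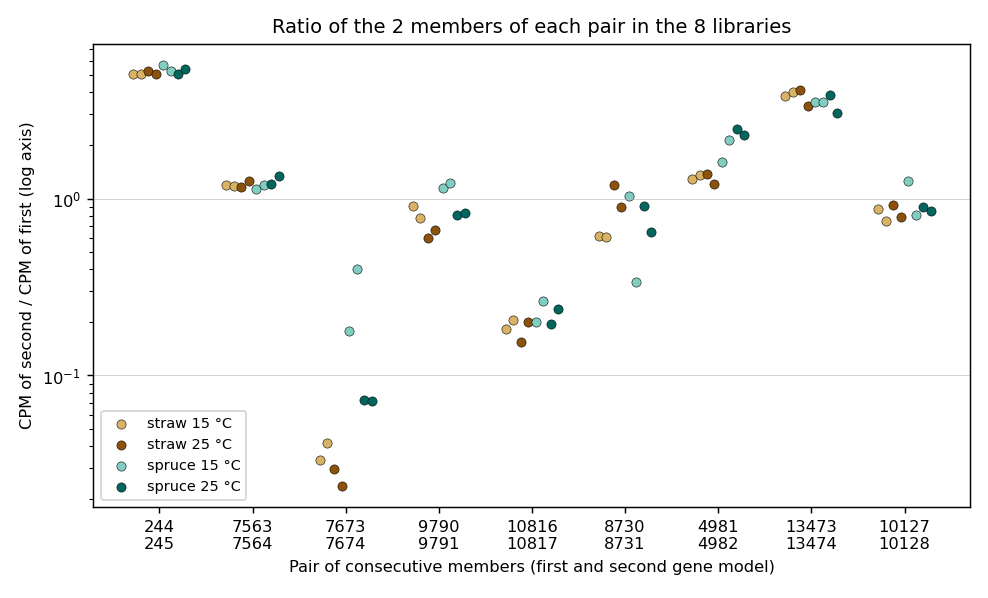
CPM of the second member divided by CPM of the first (log axis) for the 9 pairs of consecutively numbered members, 1 point per library. The points of 244 with 245 and of 7563 with 7564 lie almost level over all 8 libraries, whereas those of 7673 with 7674 run from 0.024 to 0.40.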

How the data were processed

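The deposited values are raw counts, whole numbers for each gene model in each library, as read from the files. The submitters' processing notes name Trimmomatic 0.36 and STAR 2.7.10a without their settings. Build, annotation and strand setting: not given in the sources used here. CPM were computed with edgeR 4.0.16 (R 4.3.3) and TMM scaling over all gene models of the 8 P. centrifuga libraries, so a level is relative to most other genes, not to total RNA. Members and lists were chosen with earlier results of these data known.

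Temperature was tested on the counts with edgeR's quasi-likelihood test (filterByExpr, TMM, 1 mean per group, no replicate block, 4 residual degrees of freedom), with Benjamini-Hochberg adjustment over 11658 models and a threshold of 0.05. The SE is the log2 fold change divided by the square root of F. The scripts were tested on simulated data. No pair of libraries agreed within sampling noise (chi-square per degree of freedom 15.4 to 69.8). Intervals cover counting error only. Alternatives were DESeq2 1.42.0, RLE scaling, library totals, no filter, a replicate block, fits of 1 substrate, other thresholds of the rule and each library left out; with 1 library left out, the lone library is assumed to vary like the other groups.

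Named members were the 2 with the highest and lowest gap ratio and the 2 models just outside each threshold; the 2 with the highest mean on each substrate; the 2 called members with the highest and lowest log2 fold change for temperature on each substrate; the 2 with the lowest interaction p in each direction; and the members of the 3 longest runs of neighbours, ties by straw CPM. No member was called in 1 direction on both substrates. Gene models 866, 9790, 9791, 2833 as a riser on straw, and those of scaffold 1603 were named after their values were seen. Gene lists by function could not be used, since no product names were given. The libraries of T. pubescens were used only to count its gene models.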

Additional observations from a re-analysis of the deposited data

Results flagged for a closer look

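The effect of temperature on gene model 5124 (jgi|Phlcen1|5124|scaffold_2116.14) differed between straw and spruce, with an interaction of 1.46 ± 0.15 on the log2 scale (SE, n = 2 per group; edgeR adjusted p = 0.0475). Both straw libraries at 25 °C lay below both at 15 °C, while both spruce libraries at 25 °C lay above both at 15 °C. The size ranged from 1.37 to 1.51 over the 13 alternatives, and the adjusted p from 1.12e-06 with DESeq2 to 0.274. The call was lost with RLE scaling, with the replicate block, and without any single straw library or either spruce library at 25 °C.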

How the results depend on the processing

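The rule chose 49 models with a gap of 2 and 240 with a gap looser than 1.5, and 128 to 199 with 1 library left out; the other settings gave 98 to 154. For members that rose on straw, DESeq2 called 7 (6.78% of all tested models), library totals 7 (9.04%) and the straw libraries alone 5 (7.78%). This count also moved with single libraries left out. For members that fell on straw, every full-data setting was within 1.5 times of 22 (leave-one-out range 7 to 29). For members that rose on spruce, RLE scaling called 1, library totals 5, the replicate block 1 and the spruce libraries alone 0 (leave-one-out range 0 to 6). For members that fell on spruce, DESeq2 called 13 (6.54% of all tested models) and the spruce libraries alone 0 (leave-one-out range 0 to 11). For the interaction, DESeq2 called 16 members (3.33% of all tested models, against 0.0858% with edgeR), library totals 2, RLE scaling 0 and the replicate block 0 (leave-one-out range 0 to 4). Where edgeR called 0, 17 to 26 members were positive and 9 to 14 negative at an unadjusted p under 0.05. With a gap of 2, 4 of 49 members were next to another. The cause of these shifts was not tested; 1 library less also leaves fewer residual degrees of freedom. For the 12 log2 fold changes of named members, 114 of 164 alternatives kept the side of the threshold, 45 lost the call, 5 gained it and 0 reversed the sign. Replicate numbers were not taken to pair the libraries. Deviations of same-numbered libraries correlated between -0.34 and 0.28 across genes. With 2 libraries per group, these values cannot decide whether same-numbered libraries belong together. With the replicate block 3 members rose and 20 fell on straw, beside 5.48% and 4.27% of all tested models. On spruce 1 member rose and 3 fell in that fit, beside 4.598% and 2.68% of all tested models. Counts of a few members near the threshold are limited by 2 libraries per group.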
